A study of Mus musculus with 8 samples.

Results

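The oocyte-type Nlrp genes are a mouse gene family whose members are read mainly in oocytes and the early embryo. The 10 genes described here are Nlrp4a, Nlrp4b, Nlrp4c, Nlrp4e, Nlrp4f, Nlrp5, Nlrp9a, Nlrp9b, Nlrp9c and Nlrp14, out of 24062 genes counted. They were chosen by the counts of Nlrp4c in these libraries, which were higher in the treated cells, and the question was whether its 9 paralogs moved with it. The change of Nlrp4c is therefore a description here and was not tested. RNA-seq of poly(A) RNA was performed in mouse embryonic stem cells (mESCs) under 4 conditions with 2 biological replicates each. All libraries came from 1 line, #33-6, in which Setdb1, the gene of a histone H3K9 methyltransferase, can be deleted with 4-hydroxytamoxifen (4-OHT). WT mESCs carried the same conditional allele and received no treatment. UNC mESCs received 2 µM UNC0642, an inhibitor of the H3K9 methyltransferases G9a and GLP, for 3 days. Setdb1 KO mESCs received 800 nM 4-OHT for 5 days. Setdb1 KO + UNC mESCs received, by their labels, 800 nM 4-OHT for 2 days and then 2 µM UNC0642 for 3 days, so that the length of 4-OHT treatment and the presence of UNC0642 cannot be told apart when they are set beside Setdb1 KO mESCs. The paper's methods give 5 days of 4-OHT for both.

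NLRP proteins have a pyrin domain, a nucleotide-binding NACHT domain and a tail of leucine-rich repeats. Some members, such as NLRP3, build inflammasomes in immune cells, whereas the oocyte-type members are stored in the growing oocyte as maternal products. NLRP5 (also called MATER) is a core subunit of the subcortical maternal complex, which the embryo needs to pass the first cleavages, and the genes of this group multiplied in tandem in rodents. H3K9 methylation is a repressive chromatin mark that keeps many germline genes and retrotransposons silent in mESCs.

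In the GENCODE M21 annotation of GRCm38, all 10 genes are protein-coding, and 9 of them lie on chromosome 7. Nlrp4c lies at chr7:6045161-6105150 on the plus strand and Nlrp4b at chr7:10687789-10730168. Nlrp9b lies at chr7:19991465-20073306. Nlrp4e (chr7:23301192-23362277) and Nlrp5 (chr7:23385889-23441922) are neighbours, and their starts are 84697 bases apart. Nlrp9c (chr7:26322473-26403700, minus strand), Nlrp4a (chr7:26435113-26476142) and Nlrp9a (chr7:26535023-26575615) form a further cluster. Nlrp14 lies at chr7:107166990-107198102. Nlrp4f is the exception, at chr13:65177111-65205977 on the minus strand.

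The Nlrp4 genes are close copies of each other, which bears on how far their counts can be separated. Over their coding sequences, Nlrp4c and Nlrp4e had 93.9% identical bases, and their longest identical run was 120 bases. Nlrp4a and Nlrp4c had 86.3%, Nlrp4c and Nlrp4f 83.2%, and Nlrp4b and Nlrp4c 79.0%. Nlrp9a and Nlrp9c had 87.7%. The first 60 coding bases, beginning at the start codon, are printed from the GENCODE M21 transcripts, with the bases that differ from Nlrp4c in capitals, to show how similar the copies are. Nlrp4e differed from Nlrp4c at 3 of these bases, Nlrp4a at 4, Nlrp4b at 10 and Nlrp4f at 12.
Nlrp4c: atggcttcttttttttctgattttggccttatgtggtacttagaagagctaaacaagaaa
Nlrp4e: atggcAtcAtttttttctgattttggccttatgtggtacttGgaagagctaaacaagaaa
Nlrp4a: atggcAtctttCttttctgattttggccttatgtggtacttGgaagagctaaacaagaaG
Nlrp4b: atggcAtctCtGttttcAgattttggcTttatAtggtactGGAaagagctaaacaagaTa
Nlrp4f: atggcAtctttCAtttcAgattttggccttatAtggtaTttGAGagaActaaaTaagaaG

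To find out how much of each transcript another gene also holds, all stretches of 50 and 100 bases of the members' transcripts were looked up in the transcripts of all other genes. Nlrp4e stood apart: 36.7% of its 50-base stretches were also found in another gene, mostly in the predicted genes Gm16443, Gm8486 and Gm8685, and 276 of them in Nlrp4c. At 100 bases the share of Nlrp4e was 11.5%. For Nlrp4c the shares were 10.7% and 0.844%. The share at 50 bases was between 2.61% and 7.79% for Nlrp4a, Nlrp4f, Nlrp5, Nlrp9a, Nlrp9b and Nlrp9c, and 0 for Nlrp4b and Nlrp14. At 100 bases, 21 stretches of Nlrp4e were still found in Nlrp4c. The paper describes paired reads longer than the stretches looked up here. The share of whole reads that fit several genes was not tested, and the shares at 50 bases may overstate it. The counter can divide a read between several positions, so by these shares the counts of Nlrp4e are the least certain of the family. Of the exons, only those of Nlrp9b overlapped another gene, Gm18877.

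**Figure D1:**
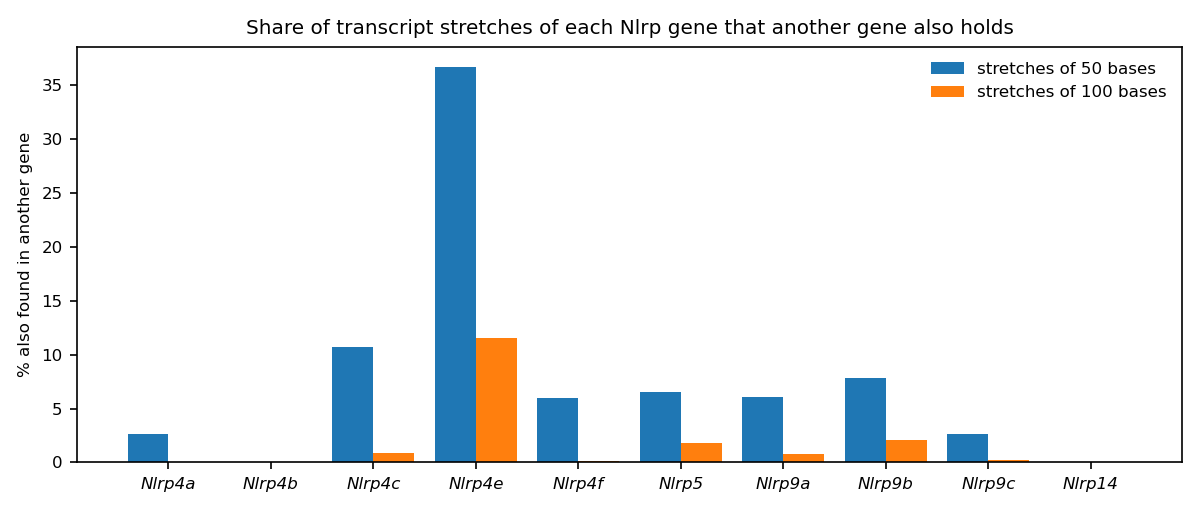
Share of the stretches of 50 bases and 100 bases (bars, in percent from 0) in the transcripts of each Nlrp gene that at least 1 other gene also holds. Nlrp4e has the tallest bars, at 36.7% and 11.5%, and Nlrp4b and Nlrp14 are at 0.

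Library totals ran from 11702590 to 26807807 counts. Levels are given as counts per 1e6 counts after TMM normalization (CPM), and a gene with 3 counts, taken as the floor of detection, had between 0.108 and 0.311 CPM. This floor covers counting error only. Setdb1, the deleted gene, had 169 and 127 CPM in the WT libraries (replicates 1 and 2), 130 and 86.4 in UNC, 47.3 and 51.0 in Setdb1 KO and 61.1 and 34.1 in Setdb1 KO + UNC, so that the libraries of both KO conditions were below all others. The fitted difference of Setdb1 did not pass the test without the replicate block (edgeR adjusted p = 0.181 and 0.0746 in KO and KO + UNC against WT), and did with it (0.0164 and 0.00593). The summed level of 10 mESC markers was between 4323 and 6602 CPM in all libraries, and none of the markers passed edgeR or DESeq2 or had an unadjusted p under 0.05 in any comparison.

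Nlrp4c had 20 and 48 counts in the WT libraries, 402 and 173 in UNC, 2025 and 1252 in Setdb1 KO, and 1793 and 1861 in Setdb1 KO + UNC. In CPM these were 1.74 and 1.73 in WT, 18.9 and 6.22 in UNC, 85.7 and 68.9 in Setdb1 KO, and 186 and 68.4 in Setdb1 KO + UNC. Every treated library lay above both WT libraries, the UNC libraries lay below those of both KO conditions, and the Setdb1 KO libraries lay within the range of the Setdb1 KO + UNC libraries. The spread between the replicates was widest in Setdb1 KO + UNC, with a mean of 127 ± 83.2 CPM (SD, n = 2). In bulk RNA, more expressing cells and more RNA per cell cannot be told apart.

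Of the 9 paralogs, 6 had enough counts to be tested in the fit of all genes and transposable elements, and 3 (Nlrp4b, Nlrp9a and Nlrp9c) had not. A feature was called where the Benjamini-Hochberg adjusted p of the edgeR quasi-likelihood test was under 0.05 and the fold change was above 10, the thresholds of the study. In UNC mESCs against WT mESCs no paralog was called, where 0% of all 16245 tested features were called higher. There, 1 paralog (Nlrp4e) was higher at an unadjusted p under 0.05, beside 481 features. DESeq2 gave 0 paralogs at an adjusted p under 0.05, beside 0.746% of its features as higher. In Setdb1 KO mESCs again no paralog was called, against a background of 0.837% of the features. Nlrp4a and Nlrp4e were the 2 with an unadjusted p under 0.05, both higher, beside 1149 features. They were also the 2 that passed in DESeq2, beside 3.35% of its features as higher. In Setdb1 KO + UNC mESCs 1 paralog, Nlrp4e, was called higher, against 2.87% of the features. Nlrp4e passed the expression filter only through its counts in the KO conditions, so this call is not separate support for a rise. In that comparison 3 paralogs (Nlrp4e, Nlrp5 and Nlrp14) were higher at an unadjusted p under 0.05, beside 1771 features. Nlrp5 too passed the expression filter only through libraries of the KO conditions, so it is not separate support either. Of the paralogs 2 passed in DESeq2 as higher, beside 6.21% of its features. No paralog was called lower in these comparisons, against 0%, 0% and 0.191% of the features. In Setdb1 KO + UNC mESCs against Setdb1 KO mESCs edgeR called no feature (0%), with 454 higher and 290 lower at an unadjusted p under 0.05, Nlrp4a among the latter, and no paralog passed in DESeq2. Against UNC mESCs no paralog was called, where edgeR called 0.825% of the features higher and 0.0123% lower. There 2 paralogs (Nlrp4a and Nlrp4e) were higher at an unadjusted p under 0.05, beside 1035 features. Of these 2, Nlrp4a passed in DESeq2, beside 2.92% of its features as higher.

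Separation of the libraries, without a test, gave a wider count. In UNC, both libraries lay above both WT libraries for 3 of the 9 paralogs (Nlrp4e, Nlrp5 and Nlrp14), as for 13.7% of the tested features, and below them for 2 (Nlrp4a and Nlrp9b), as for 10.7%. In Setdb1 KO they lay above for 6 (Nlrp4a, Nlrp4e, Nlrp5, Nlrp9a, Nlrp9c and Nlrp14), against 17.5% of the features. In Setdb1 KO + UNC they lay above for 5 (Nlrp4a, Nlrp4e, Nlrp5, Nlrp9a and Nlrp14), against 22.3%. No paralog lay below WT in either KO condition, where 13.1% and 21.1% of the features did. Nlrp5, Nlrp9a and Nlrp9c are in these counts with few reads, all but 1 of their libraries having under 10 counts. Nlrp9a and Nlrp9c were not among the tested features, so the shares given here do not cover them. Some of these separations rest on equal counts, which differed in CPM only by library scaling. The second libraries of WT and Setdb1 KO both had 1 count of Nlrp9a and 4 of Nlrp9c. The first Setdb1 KO + UNC library had 1 count of Nlrp9a, as had the second WT library. It had 2 counts of Nlrp5, as had the first WT library.

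**Figure D2:**
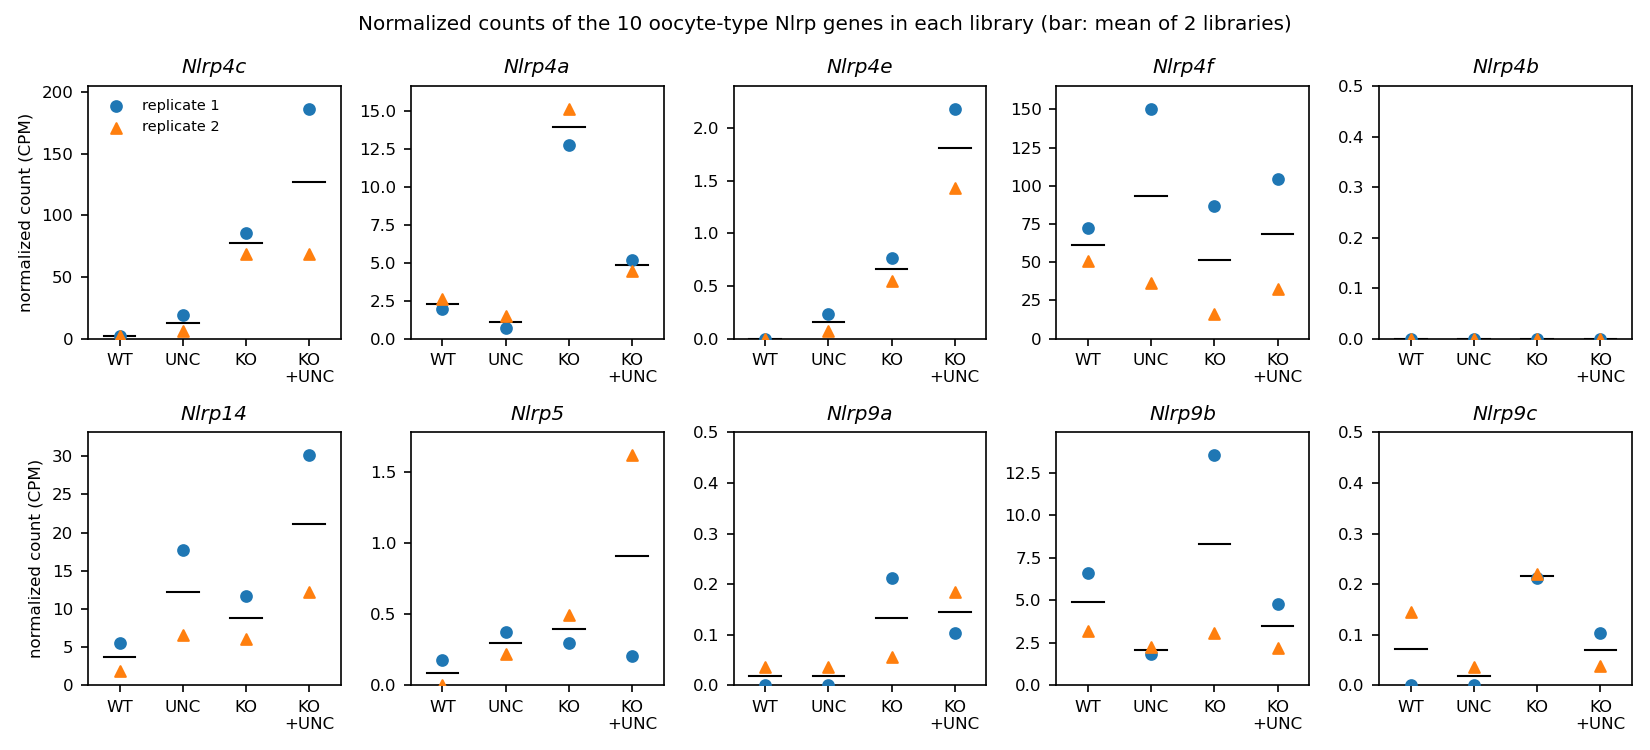
Normalized count (CPM, y axes from 0 and separate for each gene) of the 10 Nlrp genes in each library of the 4 conditions, with replicate 1 as circles, replicate 2 as triangles and the mean as a line. By the mean, Nlrp4c and Nlrp4e are highest in Setdb1 KO + UNC and Nlrp4a is highest in Setdb1 KO, and for Nlrp4f replicate 1 is above replicate 2 in every condition.

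Nlrp4e, the closest copy of Nlrp4c, was at 0 counts in both WT libraries. It had 5 and 2 counts in UNC, 18 and 10 in Setdb1 KO, and 21 and 39 in Setdb1 KO + UNC. The mean level was 0.656 ± 0.150 CPM in Setdb1 KO and 1.81 ± 0.527 CPM in Setdb1 KO + UNC (SD, n = 2). Against the floor of 3 counts in each WT library, Nlrp4e was at least 3.55-fold higher in Setdb1 KO and at least 9.78-fold higher in Setdb1 KO + UNC, and in UNC its mean was under the floor. Nlrp4e passed the expression filter only through its counts in the KO conditions. It rose in Setdb1 KO + UNC by the test (edgeR adjusted p = 0.0222), but its fitted log2 fold change of 8.23 (SE 1.49) depends on the prior count, since WT had no reads. This call was lost when either WT library or either Setdb1 KO + UNC library was left out (edgeR adjusted p between 0.0531 and 0.172). In Setdb1 KO the adjusted p was 0.105, and 0.0395 when replicate numbers were fitted as a block, which called 1.45% of the features more than 10-fold higher.

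In each library the count of Nlrp4e was at most 2.1% of that of Nlrp4c, and it was 0 in both WT libraries. The shares were 1.24% and 1.16% in UNC, from 5 and 2 counts of Nlrp4e. They were 0.889% and 0.799% in Setdb1 KO, and 1.17% and 2.1% in Setdb1 KO + UNC. Across the 8 libraries the log2 levels of both genes had a Pearson r of 0.97, as a description. Gm4541, a predicted gene that also shares stretches with Nlrp4c and was looked at after its values were seen, had 0 and 0 counts in WT, 0 and 1 in UNC, 9 and 5 in Setdb1 KO, and 6 and 14 in Setdb1 KO + UNC, which was at most 0.752% of the Nlrp4c count. The part of reads from Nlrp4c in the counts of Nlrp4e was not tested.

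Nlrp4a, also a close paralog of Nlrp4c, had a different order of conditions. It had 22 and 72 counts in WT, 15 and 41 in UNC, 301 and 275 in Setdb1 KO, and 50 and 121 in Setdb1 KO + UNC. In CPM these were 1.92 and 2.60, 0.705 and 1.47, 12.7 and 15.1, and 5.19 and 4.45. The 4 conditions did not overlap: UNC was lowest, followed by WT, Setdb1 KO + UNC and Setdb1 KO. By their ratio, the UNC replicates lay furthest apart. In WT its count was 110% and 150% of that of Nlrp4c, and in Setdb1 KO + UNC 2.79% and 6.50%.

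By the test, Nlrp4a rose in Setdb1 KO mESCs over UNC mESCs with a log2 fold change of 3.66 (SE 0.61, edgeR adjusted p = 0.0418), the 1 paralog called in that comparison, against 0.406% of the features. That call was lost with each of the 8 libraries left out (edgeR adjusted p between 0.0566 and 0.377). Against WT, its log2 fold change in Setdb1 KO was 2.61 (SE 0.58), which did not pass (edgeR adjusted p = 0.0854) and passed with the replicate block (0.00985) and in DESeq2 (0.00108), under the 10-fold threshold in each case. In UNC the log2 difference from WT was -1.05 (SE 0.57, edgeR adjusted p = 1) and in Setdb1 KO + UNC 1.08 (SE 0.57, adjusted p = 0.367). Between Setdb1 KO + UNC and Setdb1 KO it was -1.53 (SE 0.56, edgeR adjusted p = 0.905), with an unadjusted p of 0.0225. Over UNC, the difference of Setdb1 KO + UNC was 2.13 (SE 0.58, edgeR adjusted p = 0.171, and 0.0260 with the block). Nlrp4e there had 3.53 (SE 0.95, edgeR adjusted p = 0.178, and 0.0421 with the block). With the block, 3.82% of the features passed as higher in that comparison and 1.55% by more than 10-fold, and 3.8% passed as higher in Setdb1 KO over WT.

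**Figure D3:**
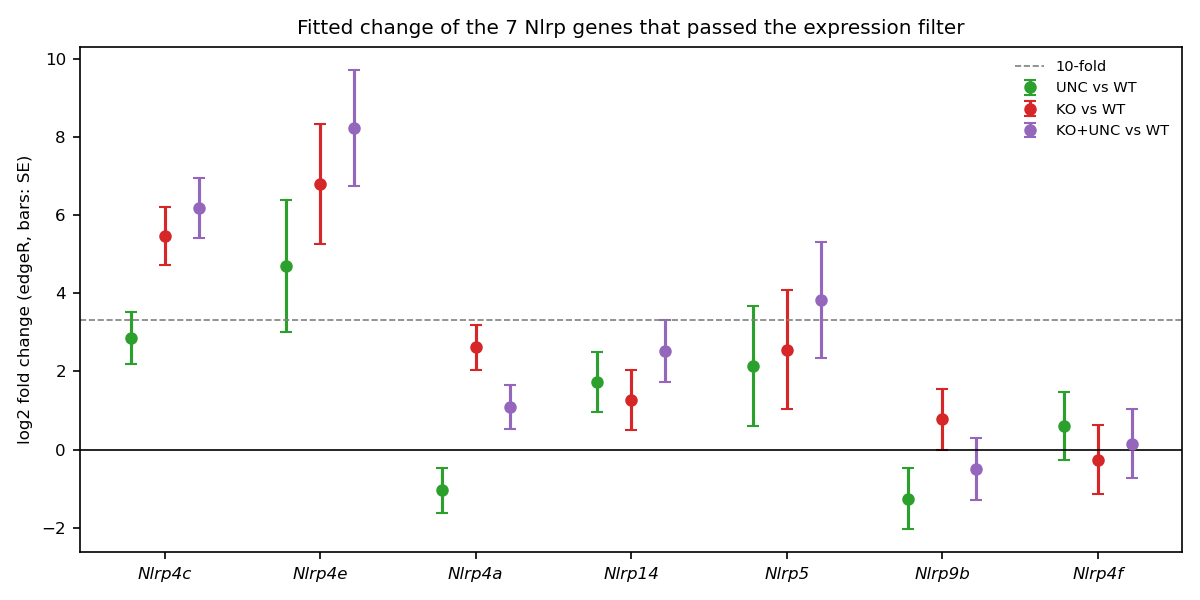
Fitted log2 fold change against WT (y axis, edgeR, bars are the SE) of the 7 Nlrp genes that passed the expression filter, for UNC, Setdb1 KO and Setdb1 KO + UNC. Nlrp4c, on whose change the family was chosen, and Nlrp4e lie highest, Nlrp4a is at -1.05 in UNC and 2.61 in Setdb1 KO, and Nlrp4f lies near 0. The values of Nlrp4e depend on the prior count.

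Nlrp4f, whose product belongs to the subcortical maternal complex, was the most abundant member in WT mESCs. It had 830 and 1402 counts in WT, 3198 and 1002 in UNC, 2045 and 293 in Setdb1 KO, and 1006 and 874 in Setdb1 KO + UNC. In CPM these were 72.3 and 50.6, 150 and 36.0, 86.6 and 16.1, and 104 and 32.1. Each treated condition overlapped with WT, and replicate 1 was above replicate 2 in all 4 conditions, by a factor between 1.43 and 5.37. This order held for 24.2% of the tested features. The log2 fold changes against WT were 0.60, -0.26 and 0.15 in UNC, Setdb1 KO and Setdb1 KO + UNC (SE 0.88 in each, edgeR adjusted p between 0.963 and 1), and the last had a negative sign with the block and with total counts normalization. The non-member features closest to Nlrp4f across the 8 libraries were Ddx18, Pcna, Usp16, Nme7 and Rrp15 (Pearson r between 0.98 and 0.99 on the log2 scale), and in these 5 genes replicate 1 was likewise above replicate 2 in every condition. Its relative Nlrp4g, with which it shares 162 stretches of 50 bases, had 5 and 3 counts in WT, 48 and 4 in UNC, 8 and 3 in Setdb1 KO, and 44 and 60 in Setdb1 KO + UNC.

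Nlrp4b was not detected: it was at 0 counts in all 8 libraries. Each library allows up to 3 counts for such a gene, or between 0.108 and 0.311 CPM.

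Nlrp14, which is active in female and male germ cells, lay higher in each treated condition, but the replicates were far apart. It had 64 and 52 counts in WT, 377 and 182 in UNC, 275 and 110 in Setdb1 KO, and 290 and 332 in Setdb1 KO + UNC, or 5.57 and 1.88, 17.7 and 6.55, 11.6 and 6.05, and 30.1 and 12.2 CPM. All 6 treated libraries lay above both WT libraries, and in each condition replicate 1 was the higher, by a factor between 1.92 and 2.97. Its log2 fold change was 1.72 (SE 0.77) in UNC, 1.27 (SE 0.76) in Setdb1 KO and 2.52 (SE 0.79) in Setdb1 KO + UNC. None passed the test (edgeR adjusted p = 1, 0.813 and 0.124). In the blocked fit, which takes up the difference between replicates 1 and 2, the adjusted p was 0.0999, 0.0514 and 0.00182, so that the last passed, as did 9.98% of the features in that direction, below the 10-fold threshold, and DESeq2 gave 0.0105 for it. Between Setdb1 KO + UNC and UNC the log2 difference of Nlrp14 was 0.80 (SE 0.75, edgeR adjusted p = 0.999).

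Nlrp5, the MATER gene, had few reads, with under 10 counts in all libraries but 1, and passed the expression filter only through libraries of the KO conditions. It had 2 and 0 counts in WT, 8 and 6 in UNC, 7 and 9 in Setdb1 KO, and 2 and 44 in Setdb1 KO + UNC. The treated libraries lay above WT in CPM, but the first Setdb1 KO + UNC library was at 0.208 CPM, under its own floor of 0.311, and the second at 1.62. Its log2 fold change in Setdb1 KO + UNC was 3.84 (SE 1.49, edgeR adjusted p = 0.209), and 1.65 without the second library. It was 2.14 in UNC and 2.55 in Setdb1 KO (edgeR adjusted p = 1 and 0.807). The copy Nlrp5-ps, which holds 315 of its 50-base stretches, had more reads, with 6 and 37 in WT, 25 and 85 in UNC, 119 and 44 in Setdb1 KO, and 19 and 63 in Setdb1 KO + UNC.

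Of the Nlrp9 genes, only Nlrp9b, whose product acts in an inflammasome of the intestinal epithelium, had more than 5 counts in a library. Nlrp9b had 76 and 88 counts in WT, 39 and 62 in UNC, 319 and 56 in Setdb1 KO, and 46 and 60 in Setdb1 KO + UNC, or 6.62 and 3.18, 1.83 and 2.23, 13.5 and 3.08, and 4.78 and 2.21 CPM. Both UNC libraries lay below WT, and the first Setdb1 KO library was the only one above it. The log2 fold changes were -1.26 (SE 0.79) in UNC, 0.77 (SE 0.78) in Setdb1 KO and -0.50 (SE 0.78) in Setdb1 KO + UNC, with edgeR adjusted p of 1, 1 and 0.826. Without the first Setdb1 KO library the second of these was -0.66. Nlrp9a and Nlrp9c had between 0 and 5 counts in each library. Both were at or near the floor, and a difference was not detectable at this depth.

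Levels per kb of exon put the members in order. In WT, Nlrp4f was at 15.9 ± 3.96 CPM per kb (SD, n = 2), and Nlrp9b at 1.31 ± 0.654 and Nlrp14 at 1.05 ± 0.739 did not differ beyond their spread. Nlrp4a at 0.466 ± 0.0997 and Nlrp4c at 0.433 ± 0.00167 did not differ either, and each other member was at 0.018 or less. In UNC, Nlrp4f was at 24.1 ± 20.9, and Nlrp14 and Nlrp4c were at 3.43 ± 2.23 and 3.13 ± 2.24, which overlap between replicates. In Setdb1 KO, Nlrp4c came first at 19.3 ± 2.97, above Nlrp4f at 13.3 ± 12.9 by less than the spread. Nlrp4a (2.88 ± 0.349), Nlrp14 (2.50 ± 1.12) and Nlrp9b (2.23 ± 1.98) followed within their spreads. In Setdb1 KO + UNC the order was Nlrp4c (31.7 ± 20.8), Nlrp4f (17.6 ± 13.2), Nlrp14 (5.98 ± 3.58), Nlrp4a (0.996 ± 0.108), Nlrp9b (0.937 ± 0.488) and Nlrp4e (0.531 ± 0.155), and apart from Nlrp14 and Nlrp4a the neighbours in it overlapped between replicates. Replicates shifted together, so the members were also compared within each library. For Setdb1 KO + UNC, Nlrp4c was above Nlrp4f and Nlrp4f above Nlrp14 in both libraries, as was Nlrp9b above Nlrp4e, whereas Nlrp4a and Nlrp9b changed places. In UNC, Nlrp14 was above Nlrp4c in both libraries, and in WT Nlrp9b was above Nlrp14 in both. In Setdb1 KO the order of Nlrp4c and Nlrp4f differed between the libraries, as did those of Nlrp4a and Nlrp14 and of Nlrp14 and Nlrp9b.

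Whether the 2 treatments together moved a gene by other than the sum of their log2 changes was tested as an interaction. No feature passed (0%), with or without the block (the edgeR adjusted p of each tested paralog was above 0.99). At an unadjusted p under 0.05, edgeR had 30 features above and 92 below the sum, none of them a paralog, and DESeq2 gave no paralog. Over the 6 tested paralogs the interaction estimate was between -3.26 (Nlrp4e) and -0.01 (Nlrp9b), with SE between 0.80 and 1.81.

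The members' patterns were then set side by side as a description over the 8 libraries, which share conditions and replicate differences. On the log2 CPM scale, the Pearson r with Nlrp4c was 0.97 for Nlrp4e, 0.76 for Nlrp14, 0.61 for Nlrp4a and Nlrp5, 0.14 for Nlrp9b and -0.01 for Nlrp4f. Among 16238 non-member features, the closest to Nlrp4c was ERVB4_1B-LTR_MM, a long terminal repeat subfamily of endogenous retroviruses of the ERVK class (r = 0.996). It had 0.958 and 1.01 CPM in WT, 3.10 and 1.73 in UNC, 8.68 and 7.65 in Setdb1 KO and 12.9 and 8.49 in Setdb1 KO + UNC. Serpinb9, an inhibitor of granzyme B, followed with r = 0.988 and 0 and 0.0722 CPM in WT, 0.564 and 0.216 in UNC, 2.33 and 1.54 in Setdb1 KO, and 2.49 and 1.66 in Setdb1 KO + UNC. The other features nearest to Nlrp4c were the ERVK subfamilies RMER16A3 and RLTR43C and the gene Pnma3 (r = 0.984, 0.984 and 0.982).

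Most genes of the oocyte list were at or near 0 in these cells. Of 28 oocyte genes, between 11 and 19 were at 0 counts in each library, 8 had enough counts to be tested, and none passed in any comparison in edgeR or DESeq2. At an unadjusted p under 0.05, 1 was higher in Setdb1 KO over WT, beside 1149 of 16245 features. In Setdb1 KO + UNC over UNC 1 was lower at that p, beside 438 features. The defining genes Oosp1 and Oosp2 were at 0 throughout, Bmp15 had at most 2 counts, Zp2 at most 3, Zp1 at most 2, and Gdf9, an oocyte growth factor, at most 18. Zp3, a zona pellucida gene, had between 13 and 36 counts in each library. Within this list Sohlh2, a germ cell transcription factor gene, was the exception, with between 321 and 2297 counts (31.2 to 84.5 CPM). It made up between 83.6% and 93.8% of the summed level of the list. Its WT libraries had 31.2 and 48.6 CPM and overlapped with those of each treated condition. Sohlh1, named after its values were seen, had 0 counts in both WT libraries and 2 and 10 in UNC. It had 1 and 23 in Setdb1 KO (edgeR adjusted p = 0.503, unadjusted p = 0.0375) and 0 and 19 in Setdb1 KO + UNC. Of the list, Oas1c had 37 and 34 counts in WT and 5 and 23 in Setdb1 KO + UNC, a log2 difference of -1.64 (SE 0.78, edgeR adjusted p = 0.317). The partners of NLRP5 in the subcortical maternal complex were tested for 4 of 6 genes, and none passed in edgeR. In Setdb1 KO + UNC over WT, 1 was lower in DESeq2, beside 2.44% of its features. At an unadjusted p under 0.05, 1 was lower there, beside 1155 of 16245 features. Khdc3, an RNA-binding subunit of it, had 61 and 204 counts in WT and 6 and 53 in Setdb1 KO + UNC, with a log2 difference of -2.25 (SE 0.70, edgeR adjusted p = 0.119, and 0.0347 with the block). Tle6 had 101 and 435 counts in WT and 43 and 165 in Setdb1 KO + UNC, with a difference of -1.21 (SE 0.58, adjusted p = 0.320, and 0.0446 with the block). With the block, 7.19% of the features passed as lower in that comparison. Ooep, another of the 4 tested partner genes and named after its values were seen, was not near 0. It had between 329 and 2050 counts (29.6 to 75.4 CPM) in each library.

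Among 20 other NLR genes, 13 were tested, and in edgeR 0 rose in UNC (0 also in DESeq2 and at an unadjusted p under 0.05), 1 in Setdb1 KO and 2 in Setdb1 KO + UNC at an adjusted p under 0.05, as did 0%, 1.11% and 3.6% of the features. In Setdb1 KO the block and DESeq2 each gave 2 higher, beside 3.8% and 3.35% of the features. For Setdb1 KO + UNC the block gave 4 higher and 1 lower, beside 9.98% and 7.19% of the features. DESeq2 gave 3 higher and 1 lower there, beside 6.21% and 2.44%. At an unadjusted p under 0.05, 5 were higher and 1 lower, beside 1771 and 1155 of the 16245 features. Nlrp1a, whose product can build an inflammasome, had 146 and 340 counts in WT, 306 and 219 in UNC, 1583 and 1510 in Setdb1 KO, and 951 and 1913 in Setdb1 KO + UNC. Its libraries of both KO conditions lay above all others, and it rose on the log2 scale by 2.59 in Setdb1 KO (SE 0.45, edgeR adjusted p = 0.0316) and by 2.76 in Setdb1 KO + UNC (SE 0.45, adjusted p = 0.0120). Nlrp10 had 2 and 3 counts in WT, 16 and 11 in UNC, 121 and 15 in Setdb1 KO, and 121 and 73 in Setdb1 KO + UNC, and rose in the last with a log2 fold change of 5.76 (SE 1.25, edgeR adjusted p = 0.0363). Naip2, with 18 counts at most, had 4.71 (SE 1.19, edgeR adjusted p = 0.0631, and 0.0255 with the block). Nlrp4g, whose counts are given above, had 3.75 there (SE 1.30, edgeR adjusted p = 0.160, and 0.0179 with the block). Nlrp6, named here after its values were seen, was the lower gene. It had 3 and 44 counts in WT, 8 and 16 in UNC, 6 and 2 in Setdb1 KO, and 0 in both Setdb1 KO + UNC libraries (edgeR adjusted p = 0.0682, 0.0311 with the block and 0.0202 in DESeq2). The median log2 fold change of the 13 genes in Setdb1 KO + UNC was 0.85, beside -0.01 over all features. Of 8 inflammasome partners 3 were tested, and none passed in edgeR or DESeq2 or had an unadjusted p under 0.05. Aim2, a sensor of cytosolic DNA, had a log2 fold change of 1.18 in Setdb1 KO + UNC (SE 0.55, edgeR adjusted p = 0.306, and 0.0357 with the block).

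Genes of the 2-cell stage rose in Setdb1 KO + UNC mESCs. The summed level of 19 such genes was 15.2 and 46.6 CPM in WT, 1415 and 497 in UNC, 691 and 260 in Setdb1 KO, and 2634 and 1142 in Setdb1 KO + UNC. In these sums replicate 1 was above replicate 2 in every treated condition, as it was for Nlrp14. The mean of UNC lay above that of Setdb1 KO for both, but the libraries of these conditions overlapped. The list was made with earlier results of these data known, so its counts are a description and no separate support. By the test, 18 of the 19 rose in Setdb1 KO + UNC, 3 in Setdb1 KO and 0 in UNC, beside 3.6%, 1.11% and 0% of all features. With the block 19, 13 and 4 rose, beside 9.98%, 3.8% and 0.166%. This order depends on the test, since all 19 were higher in UNC at an unadjusted p under 0.05 and DESeq2 gave 18, 18 and 19 in UNC, Setdb1 KO and Setdb1 KO + UNC. The list as drawn up had 20 genes, and Duxf3 was left out because it was not found under that name. Dux, fitted apart from the 19, had 3 and 53 counts in WT and 35 and 122 in UNC, which overlapped in CPM. Dux did not pass in UNC even without adjustment (edgeR unadjusted p = 0.203). In Setdb1 KO and Setdb1 KO + UNC its edgeR adjusted p was 0.486 and 0.349, and 0.0244 and 0.0200 with the block. The ubiquitin protease gene Usp17lb had 3 and 13 counts in WT, 1153 and 612 in UNC, 309 and 136 in Setdb1 KO and 1303 and 2165 in Setdb1 KO + UNC (log2 fold change 8.10 in the last, SE 0.77, edgeR adjusted p = 0.00193). Usp17le and Usp17la rose there with log2 fold changes of 5.67 and 6.72 (SE 0.58 and 0.88, edgeR adjusted p = 0.00277 and 0.00590).

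Genes of the germline were higher in both KO conditions. The summed level of 20 such genes was between 247 and 248 CPM in WT, 320 and 339 in UNC, 1429 and 1571 in Setdb1 KO, and 1344 and 1648 in Setdb1 KO + UNC. At an adjusted p under 0.05, 8 of them rose in Setdb1 KO, 11 in Setdb1 KO + UNC and 0 in UNC. The shares of all features were 1.11%, 3.6% and 0%. In UNC 2 were higher at an unadjusted p under 0.05, beside 481 features, and DESeq2 gave 1, beside 0.746%. This list too was made with earlier results of these data known, so its counts are a description. With the block 15, 15 and 1 rose, beside 3.8%, 9.98% and 0.166% of the features. Taf7l, a testis form of a TFIID subunit, had 33 and 72 counts in WT, 68 and 96 in UNC, 1050 and 927 in Setdb1 KO, and 281 and 1735 in Setdb1 KO + UNC (log2 fold change 4.09 in the last, SE 0.53, edgeR adjusted p = 0.00573). Slc25a31 and Rpl10l rose there with log2 fold changes of 4.30 and 3.79 (SE 0.55 and 0.51, edgeR adjusted p = 0.00576 and 0.00681). The part of a 2-cell-like or germline-like change of the cells in the levels of the Nlrp genes was not tested.

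**Figure D4:**
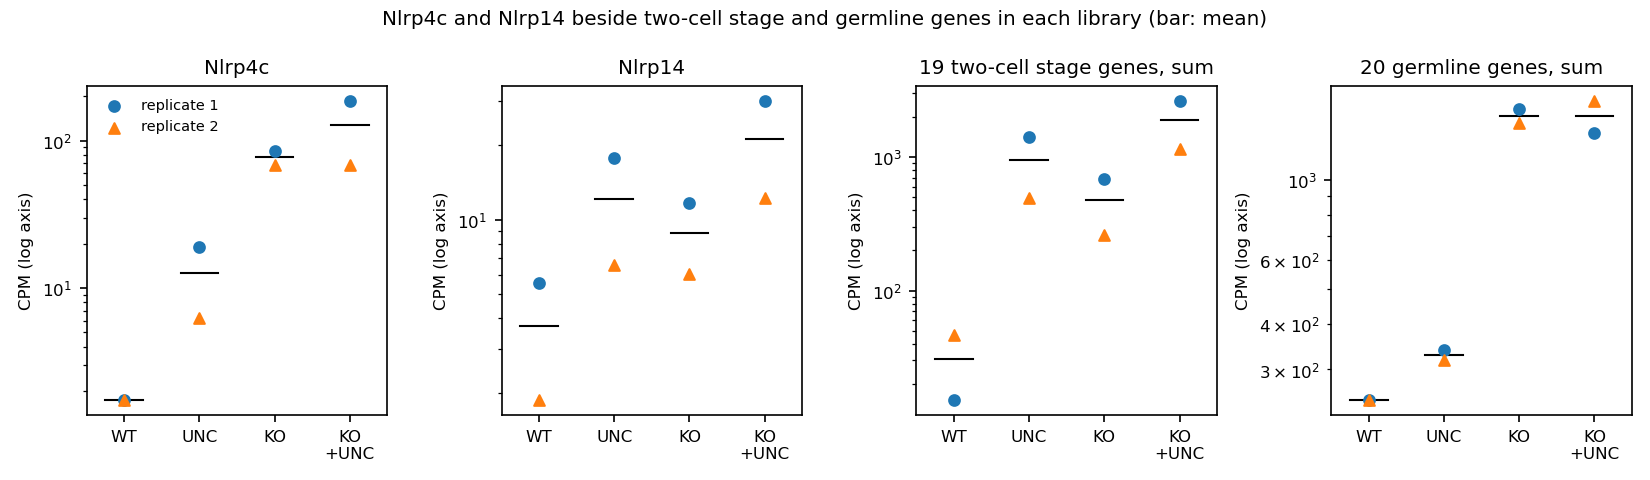
CPM of Nlrp4c and Nlrp14 and the summed CPM of 19 genes of the 2-cell stage and 20 germline genes in each library (log y axes, line at the mean of 2 libraries). Nlrp14 and the 2-cell stage genes are higher in UNC than in Setdb1 KO by the mean, with libraries that overlap, whereas Nlrp4c and the germline genes are higher in Setdb1 KO.

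Markers of other cell types were low or did not pass the test. Of trophectoderm, primitive endoderm and fibroblast markers, 7 of 9, 6 of 6 and 6 of 8 were tested, and none passed in any comparison in edgeR. Their summed levels were between 28.2 and 135, 9.23 and 54.5, and 6.60 and 24.0 CPM. Against WT, none had an unadjusted p under 0.05 in UNC. In Setdb1 KO 1 trophectoderm gene was higher at that p, beside 1149 of 16245 features. In Setdb1 KO + UNC 1 fibroblast gene was higher and 1 lower, beside 1771 and 1155 features. DESeq2 gave 0, 0 and the same 2 fibroblast genes, the latter beside 6.21% of its features as higher and 2.44% as lower. The trophectoderm gene was Krt8, a keratin gene, with 40 and 156 counts in WT, 70 and 97 in UNC, 302 and 219 in Setdb1 KO, and 98 and 167 in Setdb1 KO + UNC (log2 difference 1.44 in Setdb1 KO, SE 0.53, edgeR adjusted p = 0.391). In Setdb1 KO over UNC, the comparison in which Nlrp4a was called, 2 trophectoderm genes were higher and 2 primitive endoderm genes lower at an unadjusted p under 0.05. Of all features, 703 were higher and 281 lower there. Krt8 (log2 difference 1.87, SE 0.54, edgeR adjusted p = 0.293) passed in DESeq2, as did 1.8% of its features as higher. Krt18 (1.95, SE 0.68, edgeR adjusted p = 0.483) passed with the block, as did 2.22% of the features, while Gata6 and Dab2 (-2.39 and -2.69) passed in neither. In Setdb1 KO + UNC over UNC, Lum passed as higher with the block and in DESeq2, beside 3.82% and 2.92% of the features. Gata4 passed there as lower with the block, as did 0.831% of the features. Krt8, Krt18, Gata4, Gata6 and Dab2 are named after their values were seen, and the part of such cells in the level of Nlrp4a was not tested. Eomes, also a trophectoderm gene, had a log2 difference of -1.49 in Setdb1 KO + UNC (SE 0.73, edgeR adjusted p = 0.325, and 0.0347 with the block), and the fibroblast genes Pdgfrb and Lum had -2.69 and 8.49 (SE 0.66 and 2.1, edgeR adjusted p = 0.0560 and 0.0654, and 0.0122 and 0.0198 with the block). Lum was at 0 in both WT libraries and had 28 and 39 counts in Setdb1 KO + UNC.

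To see whether genes next to the members moved too, the 46 other genes within 200 kb of a member's start were examined. Of these 18 were tested, and those called higher numbered 0 in UNC, 1 in Setdb1 KO and 5 in Setdb1 KO + UNC, beside the backgrounds of 0%, 0.837% and 2.87% given above. None was called lower. At an unadjusted p under 0.05, 4, 5 and 6 were higher and 0, 0 and 1 lower. Of all 16245 features, 481, 1149 and 1771 were higher at that p and 64, 265 and 1155 lower. With the block and no fold threshold, 0, 3 and 5 passed as higher, beside 0.166%, 3.8% and 9.98% of the features, and 2 as lower in Setdb1 KO + UNC, beside 7.19%. None of those higher was within 200 kb of Nlrp4c, where 3 genes were tested, but 1 of those lower was. This was Zfp444, a zinc finger gene 127 kb from the start of Nlrp4c, with 128 and 458 counts in WT and 31 and 213 in Setdb1 KO + UNC (log2 difference -1.31, SE 0.66, edgeR adjusted p = 0.344, and 0.0246 with the block). The other was Pvr, 70 kb from the start of Nlrp9b (-1.59, SE 0.46, edgeR adjusted p = 0.0947, and 0.0245 with the block). Both are named after their values were seen. Cyp2b23, a cytochrome P450 gene 151 kb from the start of Nlrp9a, had 78 and 92 counts in WT, 297 and 159 in UNC, 4800 and 2775 in Setdb1 KO, and 1322 and 2307 in Setdb1 KO + UNC. Its libraries of both KO conditions lay above all others, with log2 fold changes of 5.15 (SE 0.64, edgeR adjusted p = 0.0108) and 4.47 (SE 0.62, adjusted p = 0.0070), while Nlrp9a itself had at most 5 counts. Zscan4a, a gene of the 2-cell stage 111 kb from the start of the silent Nlrp4b, had 26 and 210 counts in WT, 3712 and 1676 in UNC, 2051 and 526 in Setdb1 KO, and 2604 and 3185 in Setdb1 KO + UNC (log2 fold change 5.27 in the last, SE 0.92, edgeR adjusted p = 0.0151).

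The predicted genes Gm6902 and Gm10662, 22 and 157 kb from the start of Nlrp4e, had 13 and 188 and 15 and 256 counts in Setdb1 KO + UNC, against at most 2 in WT. Their log2 fold changes were 7.11 and 6.69 (SE 1.31 and 1.22, edgeR adjusted p = 0.0189 and 0.0179), and the replicates of Setdb1 KO + UNC lay far apart. Ceacam19, a cell adhesion gene 104 kb from the start of Nlrp9b, had 0 and 4 counts in WT, 5 and 6 in UNC, 55 and 43 in Setdb1 KO, and 43 and 118 in Setdb1 KO + UNC (log2 fold change 5.49 in the last, SE 0.93, edgeR adjusted p = 0.0133).

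**Figure D5:**
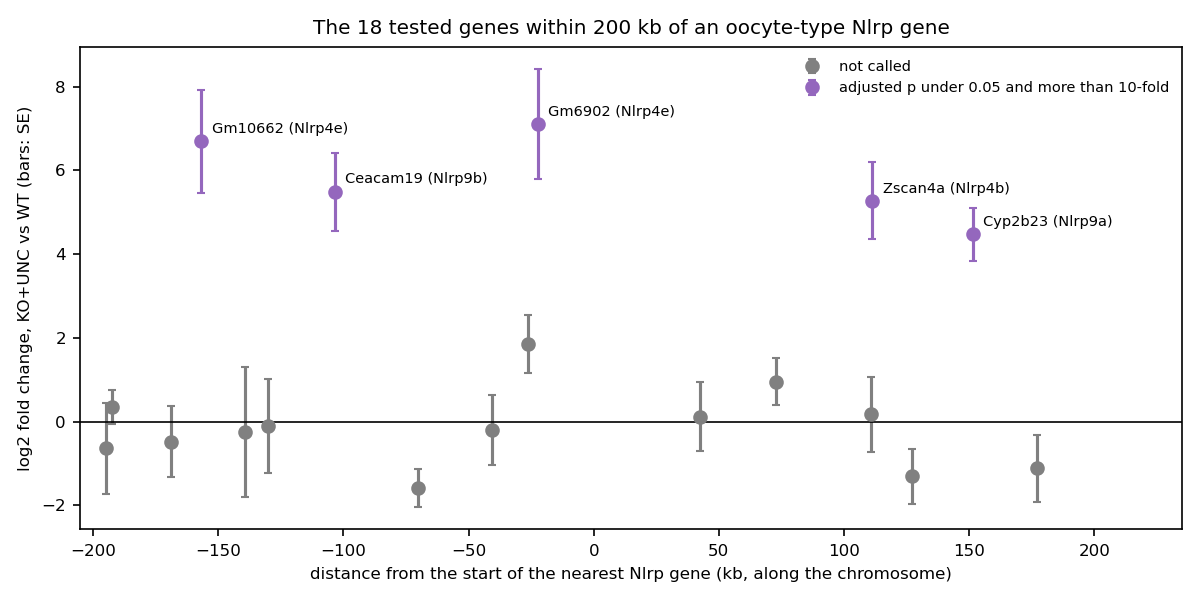
Log2 fold change of Setdb1 KO + UNC over WT (y axis, bars are the SE) of the 18 tested genes within 200 kb, by their distance from the start of the nearest oocyte-type Nlrp gene (x axis, kb). The 5 called genes are named with that Nlrp gene in parentheses, and lie between 4.47 and 7.11, above the other 13.

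RefSeq promoter windows (GRCm38.p6, 250 bases before a gene's start) were available for 9 of the 10 members in 12 entries, and not for Nlrp14. They are printed for Nlrp4c, for the second start of Nlrp4a, chosen because its window aligned with that of Nlrp4c over the longer stretch, and for Nlrp4e, the 3 close paralogs whose libraries of both KO conditions lay above WT, with CpG dinucleotides in capitals, since CpGs are the sites of DNA methylation. The windows are chr7:6044911-6045160, chr7:26435364-26435613 and chr7:23300942-23301191, all on the plus strand.
Nlrp4c: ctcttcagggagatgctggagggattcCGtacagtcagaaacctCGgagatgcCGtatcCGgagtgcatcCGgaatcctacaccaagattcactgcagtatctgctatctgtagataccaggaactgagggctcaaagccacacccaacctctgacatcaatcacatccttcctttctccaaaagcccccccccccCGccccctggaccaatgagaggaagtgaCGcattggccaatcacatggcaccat
Nlrp4a: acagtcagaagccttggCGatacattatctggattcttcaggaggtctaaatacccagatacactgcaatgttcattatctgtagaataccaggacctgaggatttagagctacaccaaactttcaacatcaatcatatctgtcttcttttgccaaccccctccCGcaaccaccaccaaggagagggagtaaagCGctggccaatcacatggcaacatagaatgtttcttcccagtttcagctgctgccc
Nlrp4e: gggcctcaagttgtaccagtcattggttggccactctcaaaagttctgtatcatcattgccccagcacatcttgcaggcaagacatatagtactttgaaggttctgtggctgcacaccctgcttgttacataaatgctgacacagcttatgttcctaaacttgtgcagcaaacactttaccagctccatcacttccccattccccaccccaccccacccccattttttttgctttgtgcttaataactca

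The window of Nlrp4c held 7 CpGs, beside a median of 6 over 32851 promoters. The Nlrp4a window held 3, a further Nlrp4a start 4, and those of Nlrp4e and Nlrp4b none. The remaining windows held 2 in Nlrp4f, 2 in each Nlrp9 gene, and 1 and 7 at the starts of Nlrp5. In a local alignment with Nlrp4c, 210 bases of the printed Nlrp4a window aligned with 79.0% identity, and only 24 bases of the window before the annotated start of the Nlrp4a gene. Of the 2 overlapping Nlrp4b windows, both of which reach into an exon of Nlrp4b, 206 bases aligned with 81.1% and 176 bases with 82.4% identity. Of the Nlrp4e window 37 bases aligned. The longest run that the windows of Nlrp4c, Nlrp4a and Nlrp4b had in common was the 12 bases ccaatcacatgg. Of motifs searched on both strands, CCAAT was in 8 of 12 member windows and in 33.8% of all promoters, TATAAA in 2 and 12.4%, GGCGGG in 2 and 32.5%, CANNTG in 11 and 66.2%, and CACGTG, which CANNTG includes, in 0 and 6.02%.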

How the data were processed

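Poly(A) RNA of mESCs was sequenced in 8 libraries, and the labels put 2 in each of 4 conditions. Trim Galore 0.3.7, TopHat2 and TEtranscripts were used by the authors for trimming, mapping to mm10 and counting. The deposited files hold unnormalized counts of genes and of transposable element subfamilies, and the strand setting and annotation release are not given in the sources used here. With edgeR 4.0.16 (R 4.3.3), filterByExpr at a minimum count of 10 and a total of at least 15 left 15313 genes and 932 subfamilies. A quasi-likelihood model with a coefficient per condition and TMM normalization (prior count 0.125) covered all 8 libraries. The p-values were adjusted over all 16245 features in each comparison, and with 2 replicates they measure the spread between these samples. The SD is over the libraries of a condition.

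Same-numbered replicates deviated together in all 6 pairs of conditions (Pearson r across 15313 genes between 0.285 and 0.663), so a fit with a replicate block is given beside results whose call it changed. DESeq2 1.42.0, other normalizations and filters, and leaving out each library were tried as alternatives. The fits were tested on simulated data. Sequences were compared with Biopython 1.88 on GENCODE M21 and RefSeq entries.

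The members and gene lists were chosen with earlier results of these data known. Named genes are all members, Setdb1, the 5 features with the highest Pearson r to Nlrp4c and to Nlrp4f (log2 CPM, prior count 2), up to 3 genes per list with the smallest p in Setdb1 KO + UNC whose treated libraries lie beyond both WT libraries, and called genes within 200 kb of a member. This rule also gave Foxa2, Krt8, Tfap2c, Zfp42, Dppa5a, Npm2 and Oas1d, none of which passed the test. Gm4541, Nlrp4g and Nlrp5-ps are named because they share sequence with a member.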

Additional observations from a re-analysis of the deposited data

How the results depend on the processing

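With 2 libraries per condition and several members near the detection floor, calls of single members changed easily, and the counts of called paralogs ran between 0 and 2 throughout. Pairing the samples by the replicate block gave 1 paralog called higher in Setdb1 KO against WT (0 without it) and 1 in Setdb1 KO + UNC against UNC (0 without it), both Nlrp4e. The shares of all features were 1.45% and 1.55%. With the block and a fold change threshold of 2, chosen after seeing the data, 2 were called in each of these, beside 3.77% and 3.79%. In Setdb1 KO + UNC against WT that setting also gave 2 (1 without the block), beside 9.47%. DESeq2 on all 8 libraries gave 1 in Setdb1 KO against WT at the 10-fold threshold, beside 1.64% of its features. The call of Nlrp4a in Setdb1 KO over UNC was lost (0 paralogs) with edgeR on the 4 libraries and with total counts normalization. The latter moved the median log2 fold change of all features by -0.11 in that comparison and by -0.17 in Setdb1 KO + UNC over WT. Leaving out 1 library gave between 0 and 1 paralogs in Setdb1 KO + UNC over WT and 0 in Setdb1 KO over UNC. The cause was not tested.

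Signs turned only for differences that did not pass the test. Nlrp4f in Setdb1 KO + UNC over WT was -0.18 with the replicate block and -0.11 with total counts, and its interaction estimate was 0.40 with the block. The interaction of Nlrp9b was 0.041 with DESeq2 on all 8 libraries and 0.039 with RLE normalization. With 1 library left out, the log2 differences whose sign turned ranged as follows. Those of Nlrp4f were -0.76 to 1.27 (UNC over WT), -1.93 to 0.47 (KO over WT), -0.94 to 0.77 (KO + UNC over WT), -0.69 to 2.07 (KO + UNC over KO), -1.54 to 0.91 (KO + UNC over UNC), -2.54 to 0.51 (KO over UNC) and -1.29 to 1.47 (interaction). Those of Nlrp9b were -0.66 to 1.45 (KO over WT), -1.14 to 0.11 (KO + UNC over WT), -1.95 to 0.16 (KO + UNC over KO) and -0.70 to 1.41 (interaction). Those of Nlrp4c were -0.18 to 1.30 (KO + UNC over KO). Those of Nlrp5 were -0.86 to 2.02 (KO + UNC over KO), -0.47 to 2.43 (KO + UNC over UNC) and -4.46 to 0.55 (interaction). Those of Nlrp14 were -1.01 to 0.44 (KO over UNC) and -1.45 to 0.40 (interaction). Those of Nlrp4a were -0.93 to 0.20 (interaction). DESeq2 and edgeR on the 4 libraries compared, no expression filter, genes only and a prior count of 2 turned no other sign.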
